A study of Mus musculus with 18 samples.

Results

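Control liver tumours of an oncogene-driven and a carcinogen-driven mouse model were compared by bulk RNA-seq. The comparison rests on 6 of the 18 samples of the study, 3 N-Ras+AKT and 3 DEN+CCl4 libraries labelled control, and covers 17013 genes tested of 55335 in the table. The samples were chosen by their labels alone. Another 6 bulk libraries come from the same models after ablation of Prom1-expressing cells and serve here as a second set for the same comparison. Single-cell data from 6 further samples were not used here.

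In the DEN+CCl4 model, mice received N-nitrosodiethylamine (DEN, 1 mg/kg), a DNA-alkylating carcinogen, at 14 days of age. Carbon tetrachloride (CCl4, 0.2 ml/kg), a liver toxin, followed 2 times a week from 8 weeks of age for 12 to 16 weeks. The N-Ras+AKT tumours were started by hydrodynamic delivery of DNA through the tail vein, which reaches hepatocytes. It carried 20 µg each of a plasmid for a constitutively active N-Ras and of one for AKT with a myristoylation signal that keeps it at the membrane. The Sleeping Beauty transposase given with them (1.6 µg) inserts them into the genome, and an EF1a promoter drives both. The age at injection is not given in the labels. The strain label of every bulk library is Prom1C-L/+;Rosa26DTA/+, a Prom1 knock-in with a tamoxifen-inducible Cre and a Cre-dependent diphtheria toxin A. The design text, however, names littermates without the knock-in as controls, and also an olive oil vehicle in place of tamoxifen (4 mg doses). How the control mice differed from the depleted ones is therefore not settled. Tumours were taken 16 days after the last dose in the DEN+CCl4 model and 6 days after it in the N-Ras+AKT model, so the models also differ in timing. No batch is given in the labels, and a difference between the models cannot be told apart from one between the ways and times in which the samples were made. Nothing states that the libraries come from separate mice, so the p-values measure the spread between these samples.

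Hepatocytes make most plasma proteins, detoxify ammonia and foreign compounds, and store or export lipid. Ras proteins signal through the RAF, MEK and ERK kinases to transcription, while AKT, downstream of PI3 kinase, drives glucose uptake, glycolysis and lipid synthesis. Tumours with both oncogenes are known for fat-laden cells, and those of the carcinogen model arise in a liver kept in repeated injury and repair.

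Depth ranged from 36336745 to 43130284 counts per library for DEN+CCl4 and from 37451706 to 48055812 for N-Ras+AKT. The 10 genes with the most counts took 33.62 to 38.58% of the counts in DEN+CCl4 and 20.13 to 21.15% in N-Ras+AKT. Albumin took 12.4 to 15.5% against 6.84 to 7.13%, and 1 ribosomal RNA gene 3.02 to 12.391% against 1.163 to 3.049%. On the first principal component of the 6 libraries, which held 71% of the variance, the groups lay at −75 to −67.8 and 64 to 77.6. All 6 libraries had the Y-linked transcripts of males. Levels are given as CPM, a gene's share of the library's counts after trimmed-mean (TMM) scaling of library sizes, as mean ± SD over 3 libraries, and fold changes are N-Ras+AKT over DEN+CCl4 on the log2 scale with their standard error (SE). In bulk tissue, fewer cells of a type and less RNA per cell cannot be told apart.

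Of the 17013 genes tested, 6901 (40.6%) passed edgeR's quasi-likelihood test at an adjusted p under 0.05. The N-Ras+AKT tumours were higher for 3538 (20.8%) and lower for 3363 (19.8%), and 3204 of the calls (18.8% of the genes tested) were at least 2-fold. The 3 libraries of a model lay wholly on 1 side of the other model's for 54.5% of all genes tested and for 98.1% of those called. The counts of the 2 directions depend on scaling: with total counts alone, 10460 genes passed, 9401 higher and 1059 lower (89.9% higher, against 51.3% with TMM). The median of all genes then moved from 0.037 to 0.684, so differences are reported here relative to a typical gene. For the lists described in the text, medians that turn positive with total counts are named as such.

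The first check of the labels is the oncogenes themselves. Akt1, the AKT kinase (chromosome 12, 112653821 to 112674884, GRCm38), had 50.6, 53.1 and 53.5 CPM in the DEN+CCl4 libraries and 1213, 874 and 1214 CPM in the N-Ras+AKT libraries. It was 21-fold higher (log2 4.39, SE 0.17, adjusted p = 1.94e-07), the smallest p among genes at least 2-fold higher. Nras had 27.4 to 32.6 CPM in DEN+CCl4 and 50.7 to 67.1 CPM in N-Ras+AKT, 2.01-fold higher (log2 1.01, SE 0.13, adjusted p = 0.000189). Both genes were higher in all 3 N-Ras+AKT libraries, and Hras, a Ras gene that was not injected, did not pass (24.3 ± 0.888 and 27.5 ± 2.65 CPM, adjusted p = 0.361, but 0.000495 with total counts). Mras, a Ras relative that was also not injected, did pass as higher, with a larger fold change than Nras. A rise of the size seen for Nras was therefore not particular to the injected Ras gene. The labels do not say whether the plasmids carry mouse or human coding sequence, and reads of a plasmid and of the mouse gene were not separated.

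Prom1, whose promoter drives the Cre, was at 60.1, 76.7 and 48.9 CPM in DEN+CCl4 and 45.4, 59.2 and 78.3 CPM in N-Ras+AKT. These ranges overlap, and the difference (log2 −0.02, SE 0.56, adjusted p = 0.98) did not pass.

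Genes with the largest differences were nearly silent in 1 of the models. Prom2, a relative of Prom1 that shapes membrane protrusions, had 32.8, 22.4 and 17.7 CPM in DEN+CCl4 and no count in any N-Ras+AKT library. Against a floor of 3 counts over the group, it was at least 1300-fold lower in N-Ras+AKT. Gldn, which codes for gliomedin, an extracellular protein known from nerve nodes, was the lower gene with the smallest p. Its levels were 174, 168 and 170 CPM against 0.231, 0.147 and 0.0202 CPM (log2 −10.24, SE 0.49, adjusted p = 2.81e-06, or −10.9 without N-Ras+AKT 3). The trefoil peptide Tff3, a mucosal secretion product, fell from 237 ± 14.8 to 1.25 ± 0.606 CPM (log2 −7.56, adjusted p = 6.12e-06).

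Col4a3 and Col4a4, collagen chains of specialised basement membranes, are transcribed away from each other on chromosome 1 from starts 72 bases apart (82586921 and 82586849). Col4a3 had 201, 192 and 184 CPM in DEN+CCl4 and 0.941, 1.51 and 1.51 CPM in N-Ras+AKT (log2 −7.19, SE 0.58, adjusted p = 2.28e-05). Col4a4 had 46.5, 43.9 and 38.6 CPM against 0.478, 0.957 and 0.606 CPM (log2 −5.98, SE 0.39, adjusted p = 6.12e-06). The neighbours thus differed in the same direction in all 6 libraries. Also lower were Wfdc15b (−6.54), the 5-lipoxygenase Alox5, which makes leukotrienes (−5.91), Ipcef1 (−6.15), the casein Csn3 (−5.29) and the retinol dehydrogenase gene Rdh16f2 (−4.92). The dioxin-inducible oxidase Cyp1a1 fell by 4.98 (−5.77 without N-Ras+AKT 10), the sulfotransferase Sult5a1 by 5.85 (−5.20 without DEN+CCl4 13) and the phosphate transporter Slc34a2 by 4.77 (−4.0 without DEN+CCl4 13 and −5.36 without N-Ras+AKT 10).

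The largest increases were in the serine protease inhibitors Serpinb9e and Serpinb9f, near-identical genes whose shared reads make their values uncertain. Serpinb9e had no count in DEN+CCl4 and 1.77, 41.0 and 10.2 CPM in N-Ras+AKT, at least 569-fold higher against 3 counts over the group. Its call ended with voom (adjusted p = 0.0864). Serpinb9f had 1 count in all of DEN+CCl4 and 1937 in N-Ras+AKT, a ratio of 1165 with a 95% counting interval of 209 to 46024. Library N-Ras+AKT 10 was highest for both, and without it the log2 fold changes were 10.88 and 8.26 rather than 12.50 and 9.83, or 11.96 for Serpinb9f without DEN+CCl4 13.

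Foxc1, a forkhead transcription factor of mesenchyme, had at most 0.203 CPM in DEN+CCl4 and 13.9, 9.74 and 12.3 CPM in N-Ras+AKT (log2 6.73, SE 0.55, adjusted p = 1.44e-05, or 7.54 without DEN+CCl4 13). Tubb2b, a tubulin, rose from 0.474 ± 0.389 to 51.7 ± 12.7 CPM (log2 6.70, or 7.49 without DEN+CCl4 8). A2m, the broad protease inhibitor alpha-2-macroglobulin, rose from 0.635 ± 0.338 to 62.3 ± 22.7 CPM (log2 6.58). The secreted proteins Wfdc2 (5.19) and Fstl3 (5.66), the hexokinase gene Hkdc1 (5.36), Fam83a (5.28), Nipal2 (6.15) and the stress-induced cofactor Nupr1 (5.77) followed. Nupr1 spread widely, at 57.8, 5.39 and 28.5 CPM in N-Ras+AKT, and its log2 fold change was 4.92 without library 3.

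**Figure D1:**
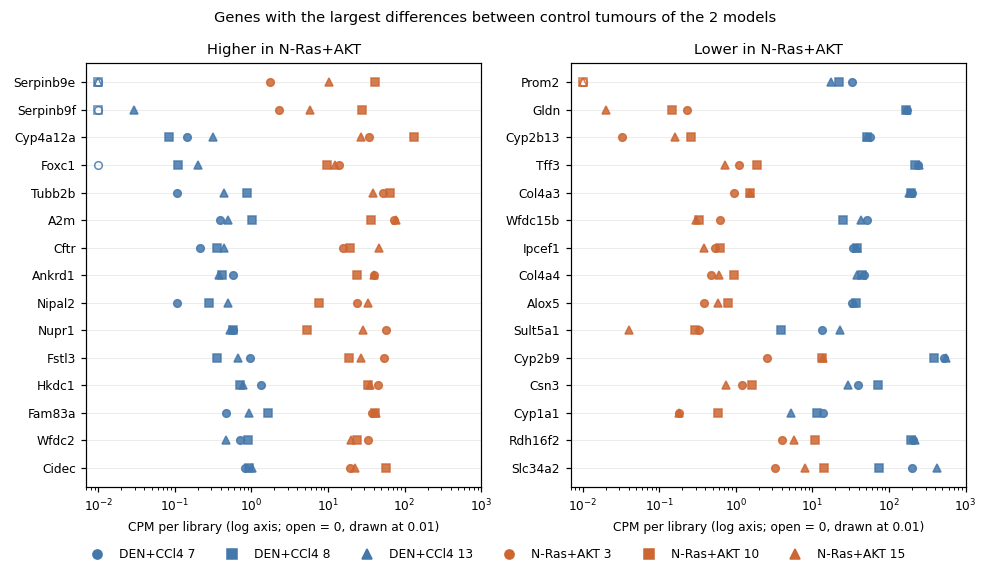
CPM of the 15 genes most higher (left) and the 15 most lower (right) in N-Ras+AKT in each control library, on a log axis. Points are single libraries (blue, DEN+CCl4; orange, N-Ras+AKT), open points are 0 counts drawn at 0.01, and only genes whose groups did not overlap could be chosen.

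Genes named for their small p-values among 2-fold calls covered a wide range of fold changes. Plekha1, an adaptor that binds phosphoinositides of the PI3 kinase pathway, had 10.2, 10.0 and 9.78 CPM in DEN+CCl4 and 37.3, 36.2 and 40.9 CPM in N-Ras+AKT (log2 1.93, SE 0.13, adjusted p = 5.13e-06). Inhbe, an activin subunit made by hepatocytes, rose from 5.41 ± 0.106 to 73.4 ± 17.7 CPM (log2 3.76, adjusted p = 3.27e-06). The transmembrane mucin Muc13 (log2 7.03), Serinc2 (2.61), the collagen prolyl hydroxylase subunit P4ha2 (3.32), Fchsd1 (3.06) and Gas6, the ligand of the AXL receptor family (1.96), also rose. On the lower side were the exchange factor gene Ngef (−2.23), the receptor gene Gpr146 (−1.97), Zfyve26 (−2.26), Rogdi (−2.91) and the heparan sulfate sulfotransferase Hs3st3b1 (−1.47).

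Genes of the Ras and AKT pathways went both ways. Of 29 tested, 10 were higher and 12 lower, and their median was −0.13 (0.53 with total counts, which called 19 higher and none of the 29 lower). Mras, a Ras relative (log2 1.40), and Pik3r1, the PI3 kinase regulatory subunit (0.99), rose, while Foxo1, a transcription factor that AKT inhibits, fell by 0.87 (adjusted p = 0.00233, but 0.296 with total counts). Genes induced by MAP kinase signalling did not rise together: of 20 tested, 4 were higher and 7 lower, with a median of −0.18 (0.48 with total counts, which called 6 higher and 3 lower). Spry4, a feedback inhibitor of this pathway, had 33.1, 34.2 and 41.9 CPM in DEN+CCl4 and 10.3, 7.38 and 7.33 CPM in N-Ras+AKT (log2 −2.12, SE 0.15, adjusted p = 6.12e-06). The immediate early gene Egr1 (−1.91) and the phosphatase gene Dusp5 (−1.77) fell. Dusp6, the phosphatase of ERK, had −0.80 (adjusted p = 0.0262), and this call ended without DEN+CCl4 7 or 13 or N-Ras+AKT 10 or 15 (adjusted p of 0.0647 to 0.0907) and with total counts (0.625). In the opposite direction, Etv4, an ETS factor, rose from 1.85 ± 0.433 to 10.8 ± 1.61 CPM (log2 2.54, adjusted p = 0.00943), and Ier3 rose by 3.10, or 2.51 without N-Ras+AKT 3.

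Among 22 receptor tyrosine kinases and their ligands, 6 were higher and 5 lower, beside 20.8% and 19.8% of all genes. Their median of −0.12 became 0.53 with total counts, which called 10 higher and 2 lower. The insulin receptor Insr fell by 1.40, the neuregulin receptor Erbb3 by 1.59 and the EGF receptor Egfr by 1.27 (306 ± 53.3 to 127 ± 14.4 CPM, adjusted p = 0.00572, but 0.0809 with total counts). Fgf21, a hormone released by stressed or fasted liver, rose from 0.441 ± 0.0934 to 13.1 ± 2.21 CPM (log2 4.90, SE 0.62, adjusted p = 0.000221).

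Genes of mature hepatocyte function were lower in the N-Ras+AKT tumours. Of 22 tested, 20 were lower and 1 higher, against 19.8% and 20.8% of all genes, with a median of −1.40 (0.037 over all genes). Total counts called 13 lower and 1 higher (median −0.76). Alb, for albumin, had 164320, 144960 and 193970 CPM in DEN+CCl4 and 56255, 55854 and 53908 CPM in N-Ras+AKT (log2 −1.60, SE 0.21, adjusted p = 0.000211). Apoa1, the main protein of high-density lipoprotein, fell by 1.92, the protease inhibitor gene Serpina1a by 2.12 and Hpd, of tyrosine breakdown, by 2.31. Ttr, the thyroid hormone carrier transthyretin, had 3958 ± 337 and 2348 ± 534 CPM and did not pass (adjusted p = 0.0801), but did with the 6 control libraries alone (0.0217) and with DESeq2 (0.0348). Serpina1 genes are near-identical copies, so Serpina1a is uncertain.

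**Figure D2:**
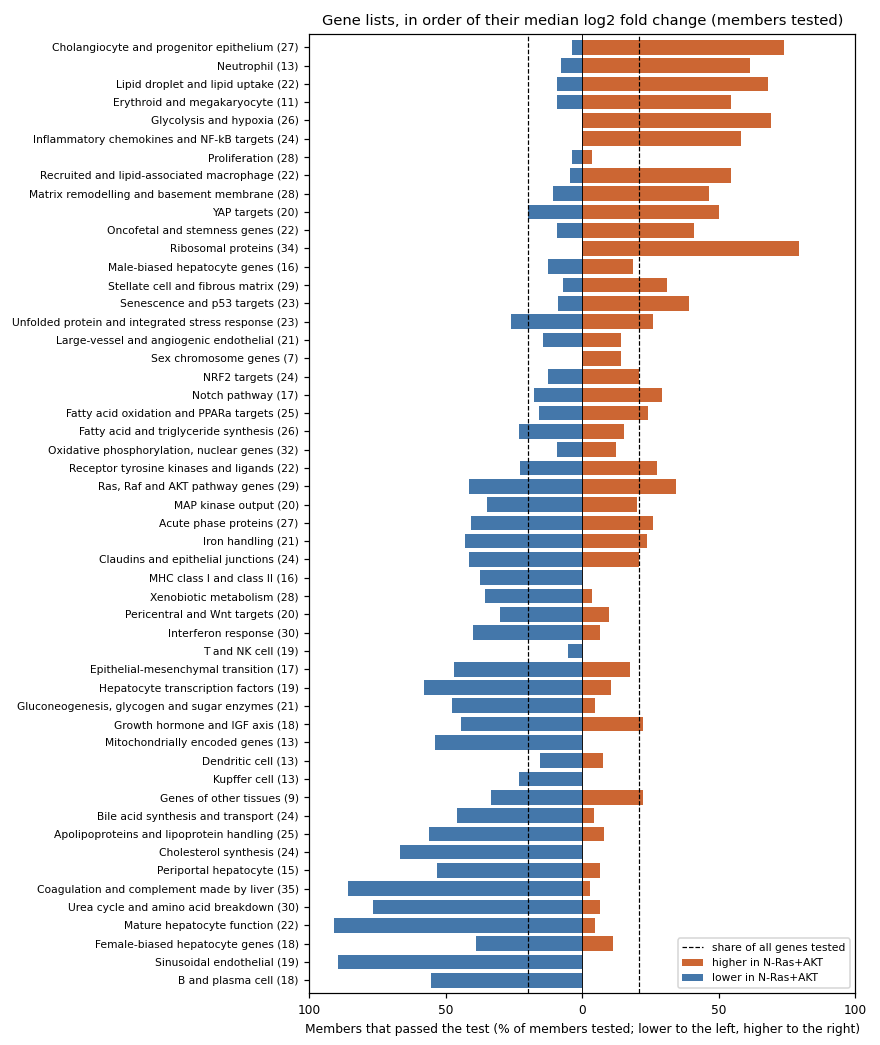
Share of each gene list's tested members that passed the test, higher in N-Ras+AKT to the right and lower to the left, with the number tested in brackets. Dashed lines mark 20.8% (higher) and 19.8% (lower), the shares over all genes, and the lists run from a median log2 fold change of 2.09 at the top to −2.15 at the bottom.

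Transcription factors that maintain hepatocyte identity went the same way in number, with 11 of 19 lower and 2 higher, though their median of −0.52 became 0.14 with total counts, which called 5 higher and 5 lower. Hnf4a, the central factor of the hepatocyte network, had 763, 794 and 853 CPM in DEN+CCl4 and 340, 377 and 321 CPM in N-Ras+AKT (log2 −1.22, SE 0.15, adjusted p = 0.000122). The retinoid receptor Rxra fell by 1.28, the fatty acid sensor Ppara by 1.76 and the xenobiotic sensor Nr1i3 by 2.37 (−2.97 without N-Ras+AKT 10).

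Of 30 genes of the urea cycle and amino acid breakdown, 23 were lower and 2 higher (median −1.34), or 16 and 4 with total counts (median −0.69). Hal, the histidine lyase, had 581, 352 and 816 CPM in DEN+CCl4 and 22.8, 35.2 and 20.9 CPM in N-Ras+AKT (log2 −4.47, SE 0.52, adjusted p = 0.000133). The urea cycle enzymes Cps1 (−2.03) and Otc (−2.13), the glutaminase Gls2 (−2.39) and the glyoxylate enzyme Agxt (−2.52) fell. The exceptions were the decarboxylase Ddc (1.95) and the betaine methyltransferase Bhmt (1.46), which were higher.

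Of 35 coagulation and complement genes, which the liver makes for the plasma, 30 were lower and 1 higher (median −1.15). With total counts, 19 were lower and 4 higher (median −0.49). Serpinf2, the plasmin inhibitor, had 1448, 1431 and 1714 CPM in DEN+CCl4 and 260, 281 and 223 CPM in N-Ras+AKT (log2 −2.59, SE 0.17, adjusted p = 5.13e-06). Prekallikrein (Klkb1) fell by 2.54, factor VIII (F8), which endothelial cells also make, by 2.26 and prothrombin (F2) by 1.19. Complement C3 was 0.88 lower (adjusted p = 0.00903, but 0.352 with total counts). C9, the last component of the membrane attack complex, was the exception, at 57.8 ± 2.53 and 293 ± 62.6 CPM (log2 2.34, adjusted p = 0.00206).

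Apolipoprotein and lipoprotein genes were lower for 14 of 25 and higher for 2 (median −0.87), or 7 lower and 4 higher with total counts. Apom fell by 2.68 (668 ± 14.5 to 104 ± 8.24 CPM) and the remnant receptor Lrp1 by 2.03. Apob fell by 1.23 (adjusted p = 0.00775, but 0.101 with total counts). Apoa4, an apolipoprotein linked to fat load, rose by 1.72.

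Hepatocyte genes differ along the liver lobule from the portal to the central vein. Periportal genes were lower for 8 of 15 (5 with total counts, which called 4 higher) and higher for 1, Cyp2f2 (log2 2.68, or 1.93 without N-Ras+AKT 10). Of 20 pericentral and Wnt target genes, 6 were lower and 2 higher, and the median of −0.44 became 0.21 with total counts, which called 3 lower and 6 higher. The Wnt feedback inhibitor Notum had 15.7, 12.8 and 18.1 CPM in DEN+CCl4 and 0.891, 2.43 and 1.19 CPM in N-Ras+AKT (log2 −3.37, adjusted p = 4.29e-05). The Wnt receptor component Lgr5 fell by 2.05 and the glutamate transporter Slc1a2 rose by 1.84. Glutamine synthetase (Glul) did not pass (53.9 ± 7.30 and 83.7 ± 43.4 CPM, adjusted p = 0.156, but 0.031 without N-Ras+AKT 3 and 0.00556 with total counts), nor did Cyp2e1 (447 ± 103 and 286 ± 186 CPM, adjusted p = 0.234, but 0.0204 without N-Ras+AKT 10).

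Bile acid genes were lower for 11 of 24 and higher for 1 (median −0.85), or 8 lower and 5 higher with total counts. Among the falls were the sterol exporter Abcg8 (−2.82), the bile acid importer Slc10a1 (−2.27) and the bile salt export pump Abcb11 (−1.42). The synthesis enzymes Cyp7a1 (40.8 ± 14.2 and 21.4 ± 9.80 CPM) and Cyp8b1 (5.08 ± 1.68 and 2.80 ± 1.88 CPM) did not pass (adjusted p = 0.16 and 0.367).

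Bile duct and progenitor markers rose. Of 27 tested, 20 were higher and 1 lower, and their median of 2.09 was the highest of the 52 lists. Cd24a, a surface protein of progenitor-like epithelium, had 4.95, 6.42 and 3.99 CPM in DEN+CCl4 and 170, 117 and 145 CPM in N-Ras+AKT (log2 4.81, SE 0.64, adjusted p = 0.000341). Spp1, the matrix protein osteopontin, also made by macrophages, had 287, 465 and 158 CPM against 9013, 7017 and 10177 CPM (log2 4.85, adjusted p = 0.0038). The chloride channel Cftr rose by 6.30 (5.67 without N-Ras+AKT 15), the epithelial factor Ehf by 4.71, the duct factor Sox9 by 2.09 and the duct keratin Krt19 by 2.37. Krt7, another duct keratin, was 1.73 higher (adjusted p = 0.0154), a call that ended without DEN+CCl4 13 (0.0549) or N-Ras+AKT 3 (0.0569). Aqp1, a water channel of ducts and of endothelium, was the member that fell (−1.47). Krt19 stayed at 2.45 to 6.14 CPM in N-Ras+AKT. The share of duct cells in the samples was not measured.

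Genes of fetal liver and stemness were higher for 9 of 22 and lower for 2. Sox4, a progenitor factor, rose from 10.2 ± 2.28 to 102 ± 13.6 CPM (log2 3.32, SE 0.31, adjusted p = 3.9e-05). The imprinted gene Peg3 rose by 3.62 and the fetal RNA-binding protein Igf2bp3 by 3.21, while Dlk1, a marker of hepatoblasts, fell by 3.38 (−2.75 without DEN+CCl4 7 and −4.25 without N-Ras+AKT 10). Alpha-fetoprotein (Afp) had 280, 262 and 121 CPM in DEN+CCl4 and 932, 2301 and 2946 CPM in N-Ras+AKT. Although these ranges did not overlap, Afp did not pass (log2 3.22, SE 1.24, adjusted p = 0.0602), and neither did H19 (adjusted p = 0.253) or glypican-3 (Gpc3, 0.529). With the 6 control libraries alone, all 3 passed (Afp 0.00283, H19 0.0176 and Gpc3 0.00541), and Afp also with DESeq2 (0.0166) and total counts (0.027). In the Notch pathway, which directs duct fate, 5 of 17 were higher and 3 lower, beside 20.8% and 19.8% of all genes. The list's median was 0.01, so it did not move as a group. The ligand Jag1 rose by 2.29 and the target Hes1 by 0.97, while the receptor Notch1 fell by 1.12.

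YAP and its partner TAZ switch on genes together with TEAD, the DNA-binding protein. Of 20 YAP targets and regulators tested, 10 were higher and 4 lower (median 0.73). Ankrd1, a target, had 0.57, 0.414 and 0.376 CPM in DEN+CCl4 and 39.5, 23.7 and 39.4 CPM in N-Ras+AKT (log2 6.24, SE 1.01, adjusted p = 0.000923). The secreted targets Ccn1 and Ccn2 rose by 1.39 and 2.65, the latter from 17.8 ± 8.42 to 112 ± 35.6 CPM (adjusted p = 0.0188, but 0.0691 without DEN+CCl4 7). The target Fjx1 rose by 4.95 (6.68 without DEN+CCl4 8), and the regulator Amotl1 fell by 1.17. The promoters of Ankrd1 and Ccn1 are shown because both rose and both hold the letters GGAATG, the core that TEAD binds. They are the 250 bases before the start on the minus strand of GRCm38.p6, from RefSeq (chr19:36119845-36120094 and chr3:145649986-145650235), written 5′ to 3′ in the gene's direction with GGAATG or its reverse complement in capitals.
Ankrd1: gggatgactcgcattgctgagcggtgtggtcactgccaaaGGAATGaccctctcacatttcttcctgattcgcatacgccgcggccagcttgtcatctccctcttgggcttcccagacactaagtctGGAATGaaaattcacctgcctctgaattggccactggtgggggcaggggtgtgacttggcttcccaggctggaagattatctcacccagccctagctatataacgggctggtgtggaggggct
Ccn1: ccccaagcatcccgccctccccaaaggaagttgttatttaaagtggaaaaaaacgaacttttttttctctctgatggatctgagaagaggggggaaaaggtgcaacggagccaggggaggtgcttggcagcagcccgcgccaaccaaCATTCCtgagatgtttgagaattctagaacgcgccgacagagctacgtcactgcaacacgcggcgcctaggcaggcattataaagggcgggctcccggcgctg
The letters lie 117 and 97 bases before the start at their nearest. On either strand they occur in 10 of 17 promoter windows of the 15 list genes matched (58.8%), against 12.6% of all 32851 windows of this length. A match is a description of the letters, and no binding was measured.

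Fat storage genes rose. Of 22 genes of lipid droplets and lipid uptake, 15 were higher and 2 lower (median 1.43). The droplet proteins Cidea and Cidec, which fuse droplets, were among the largest changes: Cidea had 0.142, 0.165 and 0.174 CPM in DEN+CCl4 and 8.15, 13 and 5.8 CPM in N-Ras+AKT (log2 5.77, SE 0.66, adjusted p = 0.000141). Cidec rose from 0.923 ± 0.0977 to 33.0 ± 20.8 CPM (log2 5.15, or 4.50 without N-Ras+AKT 10). The droplet coat protein Plin2 rose by 1.40, the fatty acid transporter Cd36 by 2.01, the binding protein Fabp4 by 1.79 and the droplet-forming Fitm1 by 3.51 (2.81 without N-Ras+AKT 10). The lipase gene Lipe fell by 1.34.

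Genes of fatty acid and triglyceride synthesis, regulators included, did not rise as a group. Of 26 tested, 4 were higher and 6 lower, with a median of −0.04 (0.60 with total counts, which called 11 higher and 2 lower). Fasn, the fatty acid synthase, had 708, 766 and 360 CPM in DEN+CCl4 and 238, 520 and 326 CPM in N-Ras+AKT, ranges that overlap (adjusted p = 0.143). Acaca and the desaturase Scd1 also did not pass (adjusted p = 0.0931 and 0.132), but Scd1 did with the 6 control libraries alone (0.0484) and with total counts (0.0234). The malic enzyme Me1, which supplies NADPH, rose by 2.06 and the acyltransferase Mogat1 by 4.96. The phosphatase Lpin1 (−1.52) and the glucose-sensing factor Mlxipl (−1.47) fell.

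Of 25 fatty acid oxidation and PPARα target genes, 6 were higher and 4 lower, near the 20.8% and 19.8% of all genes. Their median of −0.04 became 0.61 with total counts, which called 16 higher and 4 lower. That scaling called 9401 of all 17013 genes higher. The falls included Cpt1a, the gate of mitochondrial oxidation (−1.15), and the peroxisomal enzyme Ehhadh (−2.55, or −3.18 without N-Ras+AKT 10). The thioesterase Acot2 rose by 2.20.

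Cholesterol synthesis genes were lower for 16 of 24, and none of the 24 passed as higher (median −0.93, or −0.28 with 7 lower under total counts). Idi1, the isomerase that makes a building block of sterols, had 487, 598 and 194 CPM in DEN+CCl4 and 95.7, 123 and 134 CPM in N-Ras+AKT (log2 −1.86, SE 0.37, adjusted p = 0.00239). For Idi1, library DEN+CCl4 13 was the lowest of its group, yet it lay above every N-Ras+AKT library. The groups did not overlap for 12 of the 24 members, all lower, beside 54.5% of all genes in either direction. Summed over the list, DEN+CCl4 13 had 4873 CPM, against 9340 and 10930 CPM in DEN+CCl4 7 and 8 and 3289 to 3760 CPM in N-Ras+AKT. Mvk, the mevalonate kinase, fell from 51.0 ± 11.9 to 13.5 ± 1.34 CPM (log2 −1.92, adjusted p = 3.66e-05). The promoters of Idi1 and Mvk are shown because both genes fell and both hold CCAAT, the box of the factor NF-Y that acts beside the sterol-responsive SREBP. They are the 250 bases before the start on the plus strand of GRCm38.p6, from RefSeq (chr13:8885356-8885605 and chr5:114444019-114444268), with CCAAT or its reverse complement in capitals.
Idi1: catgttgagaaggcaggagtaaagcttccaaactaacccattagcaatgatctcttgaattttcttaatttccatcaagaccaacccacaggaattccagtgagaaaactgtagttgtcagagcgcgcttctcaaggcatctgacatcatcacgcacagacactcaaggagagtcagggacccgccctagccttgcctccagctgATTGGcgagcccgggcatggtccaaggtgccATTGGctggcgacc
Mvk: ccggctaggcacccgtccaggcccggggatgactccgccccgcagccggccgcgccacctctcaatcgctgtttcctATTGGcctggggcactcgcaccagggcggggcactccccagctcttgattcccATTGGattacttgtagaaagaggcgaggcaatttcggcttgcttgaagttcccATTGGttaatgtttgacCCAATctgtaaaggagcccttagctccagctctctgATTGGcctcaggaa
The box occurs 2 times in Idi1 and 5 times in Mvk, and on either strand in 15 of 19 windows of the 16 list genes matched (78.9%), against 33.8% of all windows.

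Glycolysis and hypoxia genes rose. Of 26 tested, 18 were higher and none of the 26 lower (median 1.15). Hexokinase 2 (Hk2), the first step of glycolysis, had 3.92, 4.16 and 3.70 CPM in DEN+CCl4 and 29.5, 21.7 and 13.9 CPM in N-Ras+AKT (log2 2.47, SE 0.25, adjusted p = 4.41e-05). N-Ras+AKT library 3 was highest for several members. Ndrg1, a hypoxia-induced gene, had 130, 15.4 and 29.4 CPM in libraries 3, 10 and 15 against 6.37 to 7.20 CPM in DEN+CCl4 (log2 3.12, or 1.74 without library 3). Slc16a3, the lactate exporter, had 15.6, 2.17 and 5.03 CPM against 0.221 to 0.318 CPM (log2 4.72, or 3.65 without library 3), and Egln3, an oxygen sensor, 99.5, 24.8 and 46.4 CPM against 6.45 to 7.42 CPM (log2 3.03, or 2.35). Pkm, the pyruvate kinase of growing cells, was 1.79 higher, or 1.10 without library 3, and the carbonic anhydrase Car9 3.64. The glucose transporter Slc2a1 rose by 1.27 (adjusted p = 0.0225), a call that ended without library 3 (log2 0.59, adjusted p = 0.0636), without any 1 DEN+CCl4 library (0.0545 to 0.0705) and with the 6 control libraries alone (0.0536). In every library of N-Ras+AKT the list's mean level, at 6.51, 5.22 and 5.6 log2 CPM in libraries 3, 10 and 15, was above the 4.43 to 4.52 of DEN+CCl4. The promoters of Egln3 and Slc16a3 are shown because both rose and both hold ACGTG, the core of the site of hypoxia-inducible factors. The letters are also part of the E-box CACGTG of other factors. They are the 250 bases before the start in GRCm38.p6, from RefSeq (chr12:54203875-54204124, minus strand, and chr11:120948817-120949066, plus strand), with ACGTG or its reverse complement in capitals.
Egln3: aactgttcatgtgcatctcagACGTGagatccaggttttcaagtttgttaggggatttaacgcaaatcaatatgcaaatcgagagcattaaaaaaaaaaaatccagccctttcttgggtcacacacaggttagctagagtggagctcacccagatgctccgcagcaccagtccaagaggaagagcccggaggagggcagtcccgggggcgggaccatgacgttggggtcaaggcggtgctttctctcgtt
Slc16a3: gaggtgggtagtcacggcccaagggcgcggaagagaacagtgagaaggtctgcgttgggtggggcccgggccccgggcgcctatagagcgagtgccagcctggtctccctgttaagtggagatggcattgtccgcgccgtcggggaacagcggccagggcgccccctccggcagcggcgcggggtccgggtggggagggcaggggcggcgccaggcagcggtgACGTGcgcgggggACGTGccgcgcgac
On either strand, the letters occur in 18 of 38 windows of the 25 list genes matched (47.4%), against 16.6% of all windows.

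**Figure D3:**
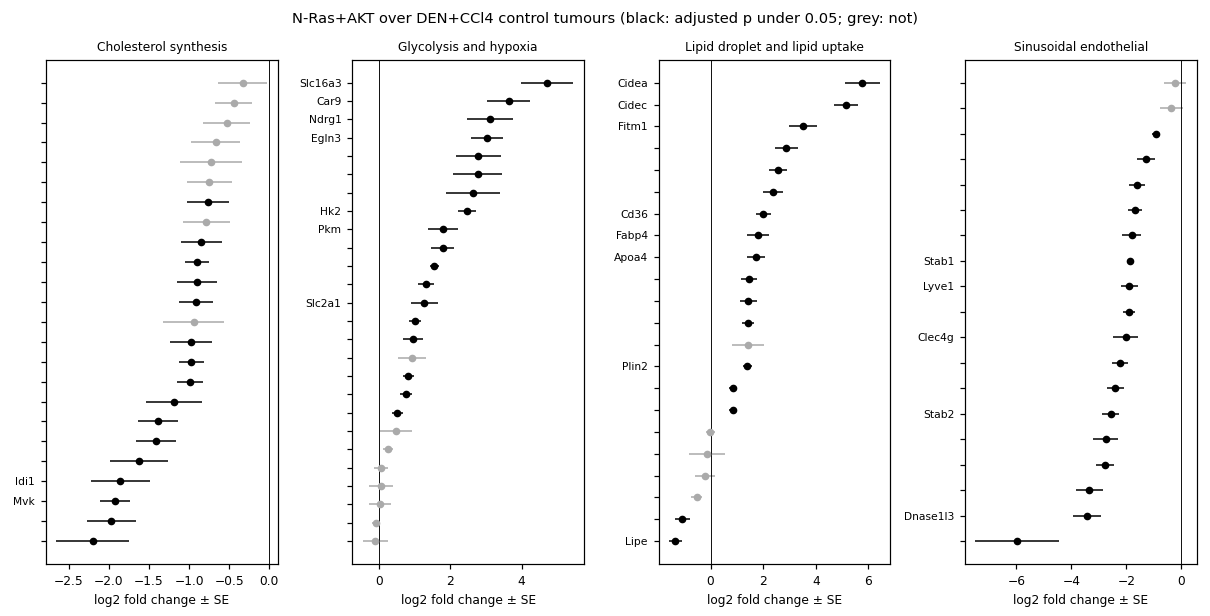
Log2 fold change of N-Ras+AKT over DEN+CCl4 control tumours ± SE for every tested member of 4 lists, with names for members described in the text. Black points passed at an adjusted p under 0.05 and grey points did not: 16 cholesterol genes lie left of 0 in black, 18 glycolysis and hypoxia genes and 15 lipid droplet genes right of it, and 17 sinusoidal endothelial genes left of it.

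The serine and one-carbon enzyme Mthfd2 (0.933 ± 0.149 to 11.9 ± 2.10 CPM, log2 3.67, adjusted p = 2.66e-05) and the glutathione-degrading Chac1 (3.46), targets of the stress factor ATF4, rose. Their list was mixed all the same, with 6 of 23 unfolded protein and integrated stress response genes higher and 6 lower.

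Many liver genes differ between the sexes in normal mice, under the pattern of growth hormone. Of 18 female-biased genes, 7 were lower and 2 higher (median −1.55, or −1.85 to −0.46 with 1 control library left out). Of 16 male-biased genes, 3 were higher and 2 lower, beside 40.6% of all genes called. Cyp2a4, a female-biased steroid hydroxylase, had 3584, 3142 and 3384 CPM in the DEN+CCl4 libraries and 107, 300 and 273 CPM in N-Ras+AKT (log2 −3.89, SE 0.52, adjusted p = 0.000262). The female-biased Cyp2b9 had 522, 387 and 555 CPM against 2.54, 13.3 and 13.9 CPM (log2 −5.62), and Cyp2b13 51.6 to 55.9 CPM against 0.033 to 0.258 CPM (log2 −8.47, or −9.13 without N-Ras+AKT 10). Cux2, a female-biased repressor, fell by 3.86 (−3.18 without DEN+CCl4 13 and −4.48 without N-Ras+AKT 10). Cyp17a1, of steroid synthesis, was female-biased but higher in N-Ras+AKT (log2 2.94). Cyp4a12a, a male-biased fatty acid hydroxylase, had at most 0.318 CPM in DEN+CCl4 and 34.3, 134 and 26.6 CPM in N-Ras+AKT (log2 8.46, SE 0.80, adjusted p = 5.52e-05). Without N-Ras+AKT 10 it was 7.37, and without DEN+CCl4 13 it was 9.18. Mup20, a urinary protein, overlapped (97.3 to 1450 and 825 to 1777 CPM, adjusted p = 0.497). The Cyp2b, Cyp2a, Cyp4a and Mup genes have near-identical copies that can share reads, so the value of any 1 member is uncertain.

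Of 18 genes of the growth hormone and insulin-like growth factor axis, 4 were higher and 8 lower (median −0.53, or 0.12 with total counts, which called 6 higher and 4 lower). The IGF-binding proteins parted: Igfbp2 had 314, 305 and 347 CPM in DEN+CCl4 and 4.97, 34.0 and 15.1 CPM in N-Ras+AKT (log2 −4.16, or −5.00 without N-Ras+AKT 10). Igfbp3 had 11.9, 19 and 14.5 CPM against 403, 169 and 147 CPM (log2 3.99, or 3.38 without N-Ras+AKT 3). Lifr, the receptor of leukemia inhibitory factor, fell from 935 ± 261 to 69.6 ± 13.3 CPM (log2 −3.75, adjusted p = 0.000148). The growth hormone receptor Ghr and Igf1 did not pass (adjusted p = 0.281 and 0.424), the latter passing as higher with total counts (0.00227).

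Acute phase proteins went both ways, with 7 of 27 higher and 11 lower. Their median of −0.2 became 0.45 with total counts, which called 13 higher and 4 lower. Lipocalin-2 (Lcn2), which binds bacterial iron carriers, rose from 402 ± 107 to 3135 ± 299 CPM (log2 2.96, adjusted p = 0.00105) and the orosomucoid Orm2 by 3.94. Hepcidin (Hamp), the hormone that limits iron release, fell from 90.4 ± 21.5 to 4.90 ± 5.28 CPM (log2 −4.21, adjusted p = 0.00346, or −5.61 without N-Ras+AKT 10). Inflammatory chemokines and NF-kB targets were higher for 14 of 24 and lower for none of the 24 (median 1.09). The monocyte attractant Ccl2 rose from 1.03 ± 0.371 to 8.21 ± 3.90 CPM (log2 2.99) and Ccl20 by 5.06, while Cxcl1 overlapped (56.9 ± 16.9 and 55.2 ± 5.06 CPM, adjusted p = 0.916). Interferon response genes were lower for 12 of 30 and higher for 2, and their median of −0.46 became 0.19 with total counts, which called 3 lower and 5 higher. The GTPases Iigp1 (−1.73) and Irgm2 (−1.41) fell, while Ifit1 did not pass (adjusted p = 0.96).

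Markers of liver sinusoidal endothelium, the fenestrated lining of liver capillaries, were lower. Of 19 tested, 17 were lower and none of the 19 higher (median −1.90, or −1.25 with 16 lower under total counts). The scavenger receptor gene Stab2 had 89.3, 90.3 and 85.2 CPM in DEN+CCl4 and 12.7, 20.0 and 12.0 CPM in N-Ras+AKT (log2 −2.57, SE 0.30, adjusted p = 0.000133). Stab1 fell by 1.85, Lyve1 by 1.88, the lectin gene Clec4g by 2.02 (2.62 without N-Ras+AKT 10) and the nuclease Dnase1l3 by 3.44. Summed over the list, the level was 723 to 835 CPM in DEN+CCl4 and 229 to 303 CPM in N-Ras+AKT. Large-vessel and angiogenic endothelial genes did not share this, with 3 of 21 higher and 3 lower (median 0.15).

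Of 29 stellate cell and fibrous matrix genes, 9 were higher and 2 lower, beside 20.8% and 19.8% of all genes. Their median of 0.36 was 0.02 to 0.51 with 1 control library left out. Rgs5, a pericyte marker, had 20.4, 21 and 19.8 CPM in DEN+CCl4 and 307, 184 and 342 CPM in N-Ras+AKT (log2 3.77, SE 0.49, adjusted p = 0.00028). The intermediate filament gene Vim rose by 2.60 and the protease inhibitor gene Timp1 by 3.46, while Reln fell by 2.42. Col1a1, the main fibrous collagen, had 44.2 ± 11.5 and 41.2 ± 1.43 CPM (adjusted p = 0.926), and the stellate cell enzyme Lrat also did not pass (adjusted p = 0.628). Of 28 matrix remodelling and basement membrane genes, 13 were higher and 3 lower (median 0.93). The integrin Itgb4, which anchors epithelium to its basement membrane, had 0.712, 0.772 and 0.839 CPM in DEN+CCl4 and 8.74, 5.02 and 15.5 CPM in N-Ras+AKT (log2 3.65, SE 0.51, adjusted p = 0.000312). The basement membrane proteoglycan Hspg2 fell by 1.37 (adjusted p = 0.0064, but 0.0624 with total counts).

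Blood cell markers differed by type. Kupffer cell genes, of the resident liver macrophage, were lower for 3 of 13 and higher for none of the 13, near the 19.8% of all genes (2 lower and 1 higher with total counts). Clec4f, Timd4 and Vsig4 did not pass (adjusted p = 0.107, 0.969 and 0.151), but Clec4f and Vsig4 did without N-Ras+AKT 10 (0.0164 and 0.00886), and Clec4f also with voom (0.047). Library N-Ras+AKT 10 had 44.3 CPM of Clec4f against 11.8 and 27.2 CPM. Recruited and lipid-associated macrophage genes were higher for 12 of 22 and lower for 1, the macrophage receptor gene Csf1r (median 1.01). The member that rose most, Spp1, is also counted among the duct and progenitor markers. Trem2 rose from 1.59 ± 0.306 to 3.82 ± 0.180 CPM (log2 1.26, adjusted p = 0.00178) and Gpnmb by 2.32. Chil3, a chitinase-like protein of macrophages, rose by 3.96 (4.92 without DEN+CCl4 8 and 3.05 without N-Ras+AKT 10).

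Of 19 neutrophil genes listed, 13 passed the filter on low counts, and the 6 that did not include the marker Ly6g. Of the 13 tested, 8 were higher and 1, Ngp, was lower (median 1.90), at low levels. S100a8 had 0.717 to 1.71 CPM in DEN+CCl4 and 4.67 to 6.70 CPM in N-Ras+AKT (log2 2.22, adjusted p = 0.000547), S100a9 rose by 2.23 and the decoy receptor Il1r2 by 4.62. Plasma cell transcripts were lower. Igha, the heavy chain of IgA, had 104, 170 and 106 CPM in DEN+CCl4 and 5.23, 5.87 and 6.08 CPM in N-Ras+AKT (log2 −4.47, SE 0.34, adjusted p = 1.52e-05). The light chain Igkc fell by 3.92, Jchain by 4.15 and the B cell receptor gene Cd79a by 2.32, and 10 of 18 B and plasma cell genes were lower with none of the 18 higher. T and NK cell genes stayed under 1 CPM for the defining markers Cd3e, Cd8a and Nkg7 in all 6 libraries. Of 28 listed, 19 passed the filter on low counts, and 1 was lower and none of the 19 higher. Their median of −0.5 became 0.13 with total counts. Cd3e passed as lower without N-Ras+AKT 10 (log2 −1.81, adjusted p = 0.0429). Hemoglobin transcripts of red blood cells were higher, with Hbb-bs at 18.3 to 35.6 and 96.1 to 326 CPM (log2 2.81, adjusted p = 0.0104, or 2.11 without N-Ras+AKT 3). Their globin copies share reads, and the part of blood in other differences was not tested. Of 26 genes of other tissues, 11 had no count in any of the 6 libraries.

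**Figure D4:**
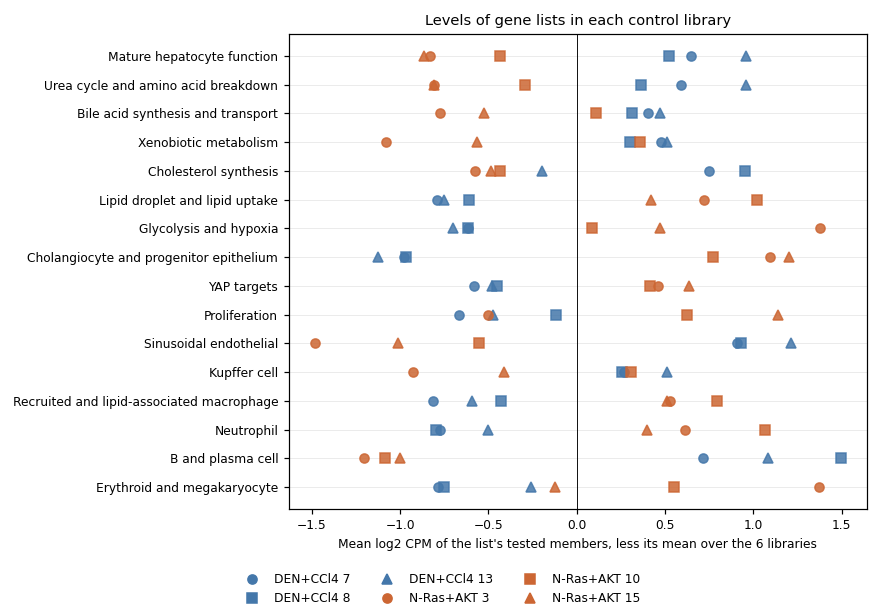
Mean log2 CPM of the tested members of 16 lists in each control library, less the list's mean over the 6 libraries (symbols mark single libraries; blue, DEN+CCl4; orange, N-Ras+AKT). Groups lie apart for most lists, while the proliferation, xenobiotic and Kupffer cell lists overlap, N-Ras+AKT 10 lies nearest to DEN+CCl4 for the hepatocyte lists, and N-Ras+AKT 3 is highest for glycolysis and hypoxia.

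Proliferation genes varied among the N-Ras+AKT libraries. Their list had mean levels of 2.22, 3.35 and 3.86 log2 CPM in N-Ras+AKT libraries 3, 10 and 15 and 2.05 to 2.60 in DEN+CCl4. Although their median was 1.01, 1 of 28 was higher and 1 lower, but with total counts (median 1.66) 15 were higher and none of the 28 lower. Mki67 had 21.6, 66.8 and 117 CPM in N-Ras+AKT and 22.3 to 37.5 CPM in DEN+CCl4 (adjusted p = 0.258), and Top2a and Ccnb1 did not pass either (adjusted p = 0.203 and 0.112), but Ccnb1 did with the 6 control libraries alone (0.0461) and with total counts (0.0412). Pcna, the replication clamp, was the higher member (20.5 ± 0.170 to 40.6 ± 9.44 CPM) and thymidine kinase Tk1 the lower (−0.85, adjusted p = 0.00334, but 0.365 with total counts). Of 23 senescence and p53 target genes, 9 were higher and 2 lower: the cell cycle inhibitor Cdkn1a rose from 26.0 ± 7.65 to 75.5 ± 14.9 CPM (log2 1.54, adjusted p = 0.000182), and Mdm2 did not pass (adjusted p = 0.958, but 0.000395 with total counts). Ribosomal protein genes were higher for 27 of 34 and lower for none of the 34 (median 0.57), while 7 of 13 mitochondrially encoded genes were lower and none of the 13 higher, with a median of −0.62 that became 0.02 with total counts (2 higher and none of the 13 lower).

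The same comparison was made in the 6 libraries of tumours after Prom1 depletion, which share no library with the controls but share the fit's estimate of spread. There, 5740 genes (33.7%) passed, 3051 higher (17.9%) and 2689 lower (15.8%) in N-Ras+AKT. On the second principal component of all bulk libraries, N-Ras+AKT depletion 17 lay at −102.1, against −48.4 and −32.7 for depletion 6 and 11. On the third, DEN+CCl4 depletion 6 lay at −84.1, against −13.8 and −0.1 for depletion 9 and 10. Of the 6901 control calls, 3070 (44.5%) were called in the same direction after depletion, which is 53.5% of the depletion calls, and 178 (2.58%) in the opposite one. Among the 3204 control calls of at least 2-fold, the share called in the same direction was 45.0%. Across the 17013 genes, which are not independent, the log2 fold changes had a correlation of 0.604. The difference between the model effects in the 2 sets passed for 1970 genes (11.6%). This count fell to 895, 1130 and 1181 without DEN+CCl4 control 7, 8 or 13, to 1176 and 1060 without N-Ras+AKT control 3 or 15, to 986 without DEN+CCl4 depletion 9, and to 1232 and 939 without N-Ras+AKT depletion 6 or 17. Its direction depends on scaling: 1357 of the 1970 differences (68.9%) were positive, meaning that N-Ras+AKT stood relatively higher after depletion, but with total counts, an alternative chosen after seeing the data, 827 of 2970 (27.8%) were. The median difference of all genes then moved from −0.03 to −0.36.

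Over all genes, 17.9% were higher and 15.8% lower after depletion, and the difference passed for 11.6%. Cholesterol synthesis genes were lower for 16 of 24 in each set (median −0.93 and −1.05), and the difference did not pass for any of the 24. Lipid droplet genes were again higher (16 of 22, median 1.80), as was Akt1 (log2 3.46, against 4.39 in controls, adjusted p of the difference 0.0207). Sinusoidal endothelial genes were lower for only 3 of 19 after depletion (median −0.41), and the difference passed for 13 of the 19. Interferon response genes, 12 of 30 lower in controls, were higher for 21 of 30 after depletion (median 1.04), with a difference for 18. Coagulation and complement genes were lower for 10 of 35 after depletion against 30 of 35, with a difference for 20. Duct and progenitor markers were higher for 7 of 27 against 20 of 27. The difference passed for only 4 of the 27, near the 11.6% of all genes, so a change of the list was not shown. Among the 4 was Sox9 (log2 −0.45 against 2.09, adjusted p of the difference 0.0225). Glycolysis and hypoxia genes were higher for 8 of 26 against 18 of 26, with a difference for 2. With total counts the difference passed for 17.5% of all genes, 827 positive and 2143 negative. It then passed for 11 of 19 sinusoidal, 15 of 30 interferon and 15 of 35 coagulation and complement genes, all positive. For duct genes it was 5 of 27, near the share of all genes. For glycolysis it was 8 of 26 and for cholesterol 1 of 24, and these and the duct genes were all negative, the more common direction.

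**Figure D5:**
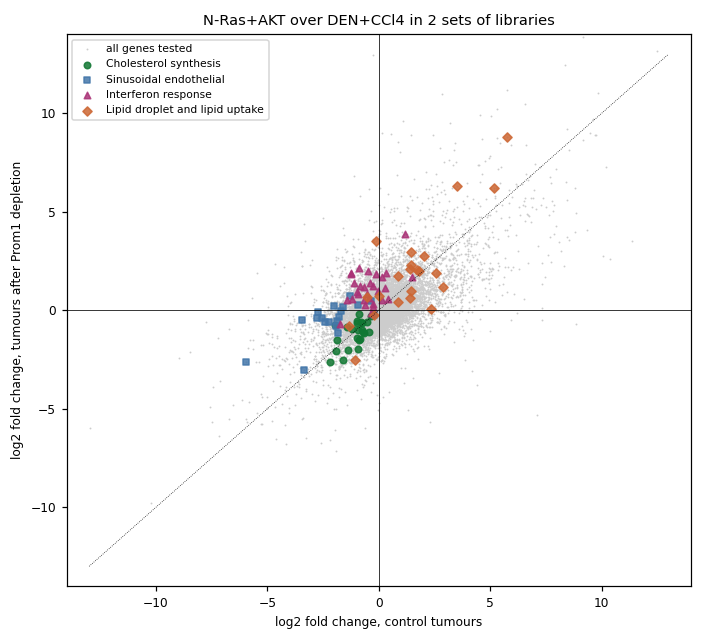
Log2 fold change of N-Ras+AKT over DEN+CCl4 in the control tumours (horizontal) and in tumours after Prom1 depletion (vertical), for 17013 genes (grey) and the members of 4 lists (colours), with the line of equal values dotted. Cholesterol genes lie below 0 on both axes, while sinusoidal endothelial genes lie left of 0 but near 0 vertically and most interferon genes lie above 0 vertically.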

How the data were processed

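RNA was taken from frozen tumours as poly-A libraries, per the labels' protocols. The deposited table holds counts per gene for 12 bulk libraries, which the authors made with STAR 2.7.3 and RSEM 1.3.1 on mm10, per the submitters' processing notes (the role of each tool is not given in the sources used here). All its columns were used. Of 55335 gene identifiers, 55154 matched the annotation, and the other 181 held 0.0064% of the counts. Library sizes were scaled by TMM (factors 0.7733 to 1.323), low counts were filtered with filterByExpr, and 1 model of 4 group means was fitted to the 12 libraries with edgeR 4.0.16 (R 4.3.3) quasi-likelihood tests, with Benjamini-Hochberg adjustment over 17013 genes. The common coefficient of variation between libraries was 0.238, with 8 residual degrees of freedom. The script was tested on simulated data. Alternatives used DESeq2 1.42.0, limma 3.58.1 voom, other scalings and filters, the 6 control libraries alone, and each library left out.

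The 52 gene lists and the genes named were chosen with earlier results of these data known. Genes could be named if they were the first 3 of a list, the 4 of a list with the largest called change in each direction, the 15 genes in each direction with the largest called change (mean of at least 5 CPM over the 6 libraries, groups not overlapping) or the 8 with the smallest p among 2-fold calls, leaving out predicted and clone-named genes, or Nras, Akt1 and Prom1. Lists were described by counts and medians, with no test. Ratios and floors on counts cover counting error only, and a floor was 3 counts over a group. Promoters were read from RefSeq. Some genes the naming rule takes are not reported here.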

Additional observations from a re-analysis of the deposited data

Results flagged for a closer look

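The genes below were singled out because the effect of the model differed between the control and the depletion libraries, by a test of the difference itself in edgeR at an adjusted p under 0.05. Such a difference was called for 1970 of the 17013 genes tested (11.6%) and for 69 of the genes named here. Many named genes were chosen for large or clear effects in the controls, which are part of this difference. The 69 can therefore not be set against the 11.6%. Each value in brackets is the log2 fold change of N-Ras+AKT over DEN+CCl4 after depletion less that in the controls, so a positive value means that N-Ras+AKT stood relatively higher after depletion. With total counts, an alternative chosen after seeing the data, all 69 values kept their sign and 58 passed. The 11 that did not, all positive, were Cpt1a, F8, Fitm1, Igha, Insr, Lrp1, Ppara, Rxra, Serpinf2, Slc10a1 and Stab1 (adjusted p of 0.0527 to 0.248). No explanation was tested.

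Hepatocyte enzymes and transporters mostly had positive values: the urea cycle and amino acid enzymes Otc (3.48), Hpd (2.69) and Hal (2.66), the bile acid genes Cyp8b1 (6.68), Cyp7a1 (4.53), Abcb11 (1.88) and Slc10a1 (1.57), and the pericentral and periportal genes Glul (3.03), Slc1a2 (2.80), Cyp2e1 (2.76), Lgr5 (2.36), Notum (2.17) and Cyp2f2 (2.81). So did the plasma protein genes C9 (2.24), Klkb1 (2.13), F8 (2.08), Apom (1.03) and Serpinf2 (0.98) and the remnant receptor gene Lrp1 (1.18). For Otc the direction of the called effect reversed, from −2.13 in controls to 1.35 after depletion. Lipid genes with such a difference were Fitm1 (2.78), Me1 (2.57), Fasn (2.51), Mlxipl (1.44) and Cpt1a (0.91), and regulators and hormone receptors were Ghr (2.14), Lifr (2.69), Ppara (1.20), Rxra (0.80) and Insr (0.66). Among sex-biased and xenobiotic genes the values were Cyp2b13 (6.35), Sult5a1 (5.34), Mup20 (4.34), Cyp2b9 (4.14), Cyp1a1 (3.96), Rdh16f2 (3.23), Cyp2a4 (3.18) and Cyp17a1 (−3.74).

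Endothelial, blood and interferon genes also had positive values: Dnase1l3 (2.95), Clec4g (2.23), Stab2 (2.15) and Stab1 (0.71) of sinusoidal endothelium, Timd4 (2.47) and Clec4f (2.04) of Kupffer cells, Cd8a (3.49) and Nkg7 (3.44) of T and NK cells, Cd79a (4.50), Igkc (1.88), Jchain (1.74) and Igha (1.67) of B and plasma cells, and the interferon response gene Irgm2 (1.91). For Cd79a the called effect went from −2.32 in controls to 2.17 after depletion.

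Negative values were found for the inflammatory and macrophage genes Chil3 (−4.54), Lcn2 (−3.20), Cxcl1 (−2.42) and Trem2 (−1.22), for the progenitor, duct and matrix genes Peg3 (−4.58), Itgb4 (−2.90), Sox9 (−2.55) and Rgs5 (−2.19), and for Igfbp3 (−4.06), Mthfd2 (−2.33), Slc2a1 (−2.14), Fchsd1 (−1.25), Cdkn1a (−1.06) and Akt1 (−0.93). The remaining genes were Prom2 (6.98), Igfbp2 (2.99), Tff3 (2.64), Gpr146 (2.16) and Inhbe (1.80).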

How the results depend on the processing

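No paired analysis was possible because nothing in the labels pairs a library of 1 model with a library of the other. The number of genes that differed between the control tumours was 6901. It was 10460 with total counts alone, 7329 with DESeq2, 6946 with voom, 6896 with relative log expression factors, 6835 with the 6 control libraries alone, 6890 without ribosomal RNA and mitochondrial genes, 6192 with no filter and 5896 with the stricter filter. With 1 control library left out it was 5349 to 6259, and for the depletion tumours it was 4414 to 5082. The count of differences between the effects rose from 1970 to 2984 with DESeq2 and was 895 to 2326 with 1 library left out, each of which lowers the number of samples. With total counts, an alternative for depletion and for the difference that was chosen after seeing the data, it was 2970 (27.8% positive, against 68.9%), and 6765 genes passed after depletion (82.5% higher). Of the 169 named genes called, 158 kept their call in all of the 11 alternatives run for single genes, and none of the 199 named genes reversed a called direction. With total counts alone, 7 named genes lost their call and 7 gained one, among them Afp (adjusted p = 0.027), Hras (0.000495) and Scd1 (0.0234). With the 6 control libraries alone, 6 named genes gained a call and Slc2a1 lost its call. Depth limits the genes near 0, where a fold change depends on a few counts.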
